A study of Mus musculus with 6 samples.

Results

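The genes that encode the protein components of the cytosolic ribosome were examined in livers of mice labelled with or without a hepatocyte deletion of HuR. They were taken from the deposited expression tables by name: protein-coding genes whose symbol began with Rpl or Rps and a digit, or with Rplp, leaving out the ribosomal S6 kinases (names beginning Rps6k) and names with -ps, which mark pseudogenes. This gave 85 of 54320 genes. By role they were 43 proteins of the large subunit, 30 of the small subunit, the 3 P-stalk proteins Rplp0, Rplp1 and Rplp2, 8 paralogs or retrogene copies, and Rps19bp1, which is named for binding Rps19 and is no part of the mature ribosome. Of the 85, 82 had a mean of at least 0.5 FPKM (read numbers scaled to gene length and library size) over the 6 libraries and were tested, among 13787 tested genes of all kinds. The 3 below that level were Rpl3l, Rpl39l and Rpl10l.

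Liver RNA of 6 C57BL/6 mice was sequenced, 3 labelled HuR flox/flox (here flox) and 3 labelled HuR HKO (HuRflox/flox Alb-Cre+/-). All 6 mice carried the floxed HuR alleles, ate a diet labelled MCD for 3 weeks and were 11 weeks old, so the groups differed by label in Alb-Cre, a recombinase driven by the albumin promoter, which acts in hepatocytes. The livers were analysed whole, so cells other than hepatocytes also gave RNA to each library. Whether any of those cells lost HuR was not measured. Setting HKO beside flox addresses how liver mRNA levels change when hepatocytes lose HuR on this diet.

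A ribosome joins a large and a small subunit, each made of ribosomal RNA and many proteins that are needed in matched amounts. The mRNAs of these proteins are short and abundant, and in mammals most begin with a C followed by a run of pyrimidines, the 5′ terminal oligopyrimidine (TOP) motif. Through this motif their translation and stability follow the kinase mTORC1 and the RNA-binding protein Larp1. HuR, encoded by Elavl1, is an RNA-binding protein best known for stabilising mRNAs with AU-rich or U-rich 3′ ends.

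The start regions of 6 genes are shown because their fold changes turned out to be among the largest, or the smallest, of the family: Rps27 and its copy Rps27rt, Rps28 and Rpl38 of the ribosome itself, and the paralogs Rpl22l1 and Rpl7l1. Each stretch runs 5′ to 3′ along the gene's strand with 25 bases on each side of the start annotated by RefSeq on GRCm38.p6. Capitals mark the TOP-like run that was searched for, a C followed by at least 4 bases that are C or T, starting within 15 bases of that start. Where several runs met this rule, the one nearest the start is marked.
Rps27: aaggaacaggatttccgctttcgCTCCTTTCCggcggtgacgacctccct
Rps27rt: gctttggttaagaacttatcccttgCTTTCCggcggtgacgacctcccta
Rps28: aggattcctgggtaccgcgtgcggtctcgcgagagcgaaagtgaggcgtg
Rpl38: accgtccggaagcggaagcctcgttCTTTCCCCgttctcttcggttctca
Rpl22l1: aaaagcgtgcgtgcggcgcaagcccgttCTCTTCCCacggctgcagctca
Rpl7l1: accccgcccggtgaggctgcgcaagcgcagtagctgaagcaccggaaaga
They lie at chr3:90213624-90213673 (minus strand), chr9:114982715-114982764 (minus), chr17:33824538-33824587 (minus), chr11:114668555-114668604 (plus), chr3:28805483-28805532 (plus) and chr17:46782632-46782681 (minus), in the order listed. The run was present in 42 of the 62 tested ribosomal protein genes with a RefSeq entry (67.7%) and in 4257 of 9482 tested genes of all kinds with an entry (44.9%). Transcription can begin some bases away from an annotated start, and the short search run occurs often by base composition, so a match is a description only. The Rps27 and Rps27rt windows share an unbroken stretch of 24 bases, ctttccggcggtgacgacctccct.

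Reads assigned to genes, recovered from the FPKM values, numbered between 16769082 and 20633215 per library. Elavl1 (chr 8, 4285382 to 4325413, GRCm38) had 3.51, 2.36 and 2.99 FPKM in libraries flox 1, 2 and 3, against 5.77, 4.28 and 4.91 FPKM in HKO 1, 2 and 3. The targeted gene was thus not lower in any library labelled HKO, and the labels were kept as given, so directions below refer to libraries labelled HKO (log2 fold change 0.67 ± 0.23 SE, limma adjusted p = 0.208). The sources used here do not give the exons removed, so reads on the remaining exons check nothing about the deletion. The flox libraries differed among themselves: flox 2 had reads on 16608 genes against 19920 to 22067 in the other 5, and its mitochondrial reads made up 2.26% of its total against 4.34 to 4.69%. Hepatocyte markers were high in every library, with summed levels of 43709 to 55119 FPKM in flox and 45596 to 58046 FPKM in HKO.

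Ribosomal protein mRNAs had lower levels in the libraries labelled HKO, nearly throughout the group, but the flox libraries differed widely from each other and no gene passed the test. The median ribosomal protein gene stood at 222, 277 and 133 FPKM in libraries flox 1, 2 and 3, against 119, 113 and 116 FPKM in HKO 1, 2 and 3. The log2 fold change of HKO against flox, on the log2(FPKM + 0.5) scale, was negative for 80 of 82 genes, with a median of -0.81 (a ratio of 0.571) and a range from -2.03 to 0.14. Over all tested genes the median was -0.00 and 50.1% were negative. With limma and Benjamini-Hochberg adjustment over all tested genes, 0 of 82 passed the threshold of 0.05 in either direction, beside 0.00725% of all genes as lower and 0.00725% as higher. The smallest adjusted p among them was 0.157. At an unadjusted p under 0.05, 37 of 82 were lower and 0 higher, against 10.8% of all genes lower and 10.1% higher. Limma's voom on the recovered reads also called 0, with 40 lower and 0 higher at an unadjusted p under 0.05, against 10.4% and 11.3% of all genes. Other scalings gave far fewer: with equal totals per length, 1 was lower and 0 higher, against 2.28% and 23.5% of all genes, and with quantile normalization 2 were lower and 0 higher, against 9.89% and 10.9%. The log2 fold change was then negative for 74 and 69 of 82, against 30.2% and 51.2% of all genes. By voom the log2 fold change was negative for 80 of 82, against 49.1%.

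**Figure D1:**
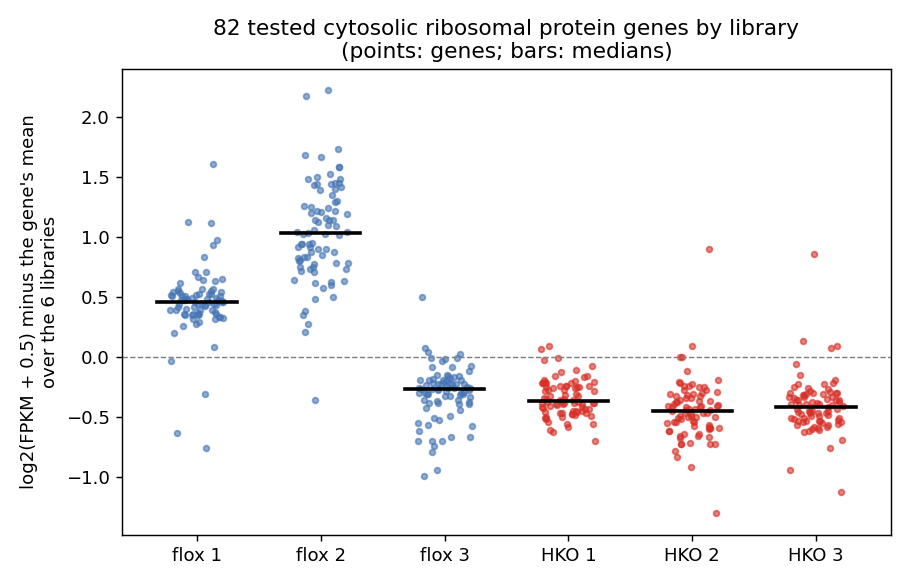
Each point is a tested ribosomal protein gene, plotted as log2(FPKM + 0.5) in a library minus the gene's mean over the 6 libraries, and bars are medians. The medians were 0.46, 1.03 and -0.27 in libraries flox 1, 2 and 3, against -0.37, -0.45 and -0.41 in HKO 1, 2 and 3, so flox 3 sits near the HKO libraries.

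The order of the 3 flox libraries was the same for most genes, while the place of flox 3 among those labelled HKO varied. In 76 of 82 genes the flox libraries ranked flox 2, flox 1, flox 3, as they did for 31.7% of all tested genes, and flox 2 was the highest of the 6 in 76, against 34.1% of all genes. Flox 1 and flox 2 both lay above all 3 HKO libraries in 75 genes, against 33.6% of all genes. Flox 3 was above all 3 in 51, within their range in 15 and below them in 16, so it was within or below in 31 of 82, against 58.3% of all genes. All 3 flox libraries were above all 3 HKO libraries in 49 genes, against 16.7% of all genes, and the reverse order occurred in 0, against 15.3%.

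The HKO libraries, in contrast, held these mRNAs at closely matched levels. The median coefficient of variation over the 3 libraries was 5.47% in HKO and 44.1% in flox, and this measure was larger in flox for 80 of 82 genes, as it was for 88.9% of all tested genes. Over all tested genes the medians were 12.1% in HKO and 43.2% in flox. In HKO, 37 of the 82 genes varied by under 5%, as did 14.1% of all tested genes. However, 74 of the 82 belong to the most abundant decile, and their spread was not compared with that of other genes of like level. A smaller spread particular to these mRNAs is therefore not shown.

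The comparison was repeated without each library in turn. Without flox 3, 73 of 82 ribosomal protein genes fell in HKO and 0 rose (limma, Benjamini-Hochberg), beside 19.4% of all genes as lower and 21% as higher, and the median log2 fold change was -1.14. Without flox 2, 0 passed, 14 were lower and 2 higher at an unadjusted p under 0.05, against 9.29% and 8.45% of all genes, and the median was -0.49, with 76 negative against 50.8%. Leaving out flox 1 or any of the HKO libraries gave 0 calls each, with medians between -0.83 and -0.77. The size of the median thus moved with both flox 2 and flox 3, in opposite directions, and calls were made only without flox 3. The median was negative in all 6 of these fits.

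**Figure D2:**
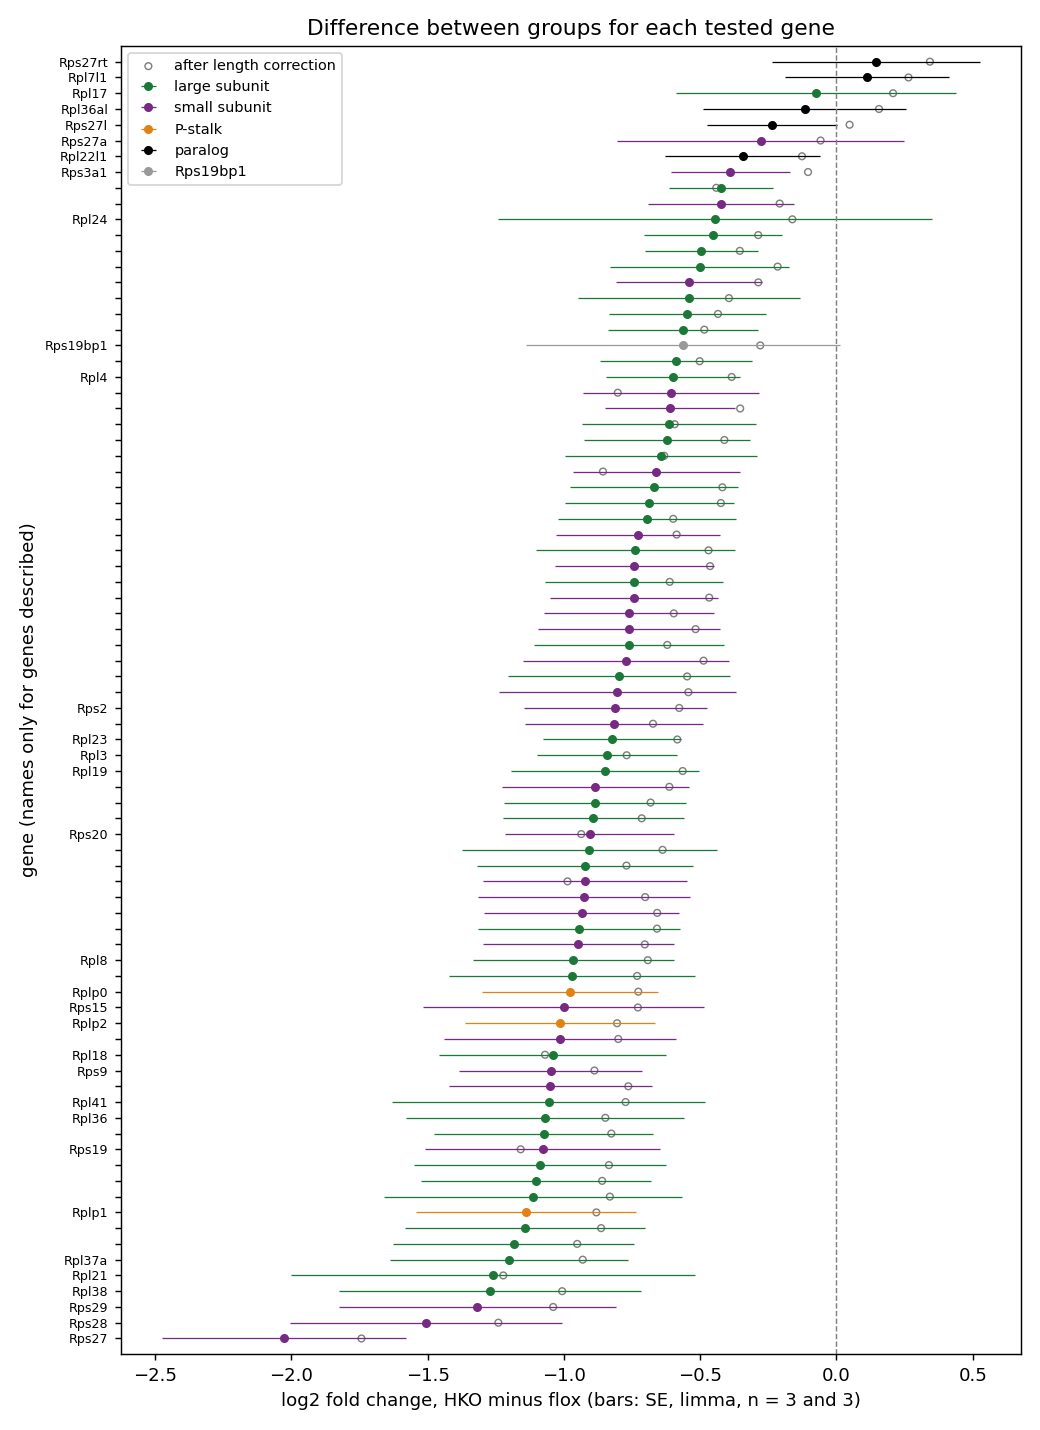
Log2 fold change of HKO against flox for each tested gene with its standard error from limma (n = 3 and 3), coloured by role with the genes described here named, and open circles with the gene length trend of the library taken out. All genes of the P-stalk, large and small subunits lie left of 0 as deposited, and the paralogs lie at or near the top.

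The P-stalk is the flexible arm of the large subunit that recruits and stimulates the GTPase translation factors. Its protein Rplp1 had the highest FPKM of all ribosomal protein genes, with 2516, 3880 and 1342 FPKM in libraries flox 1, 2 and 3, against 1202, 1035 and 982 FPKM in HKO 1, 2 and 3. Rplp0, which anchors the stalk to the ribosomal RNA, had 905, 1285 and 576 FPKM for the flox livers and 454, 441 and 438 FPKM for those labelled HKO. Rplp2, the partner of Rplp1 in the stalk's dimers, had 153, 237 and 93.7 FPKM under the flox label against 80.4, 70.1 and 72.2 FPKM under the HKO label. All 3 genes, against 16.7% of all tested genes, were lower in every HKO library than in any flox library. Their log2 fold changes were close to each other at -1.14 ± 0.40, -0.98 ± 0.32 and -1.01 ± 0.35 (SE, n = 3 and 3), with adjusted p of 0.211, 0.206 and 0.210 by limma. FPKM levels of different genes carry the deposited gene length, which was 2072 bases for Rplp2 against a principal transcript of 449 bases, and 499 bases by both measures for Rplp1, so the levels of these partners are not compared.

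Large subunit genes had a median log2 fold change of -0.82, and all 43 were negative, against 50.1% of all tested genes. At an unadjusted p under 0.05, 15 of the 43 were lower, against 10.8% of all tested genes. Mean levels of the 43 ran from 3.19 to 838 FPKM, with a median of 163 FPKM. The gene with the smallest p among them was Rpl3, whose product reaches towards the peptidyl transferase centre, at 199, 258 and 150 FPKM across flox 1 to 3 and 111, 118 and 102 FPKM across the 3 labelled HKO. Rpl23, a large subunit protein that also binds Mdm2 when free of the ribosome, had 224, 268 and 158 FPKM for the flox livers and 113, 123 and 123 FPKM for those labelled HKO. For both, the groups did not overlap. Their log2 fold changes were -0.84 and -0.82, each with an SE near 0.25 and an adjusted p of 0.192 by limma.

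Rpl38, Rpl41 and Rpl36 had larger fold changes with a wider spread. Rpl38, which in mouse is needed for the translation of certain Hox mRNAs, had 593, 757 and 167 FPKM under the flox label against 176, 157 and 192 FPKM under the HKO label (log2 fold change -1.27, adjusted p = 0.248 by limma). Rpl41, the smallest ribosomal protein, had 1055, 2162 and 403 FPKM across flox 1 to 3 and 476, 440 and 489 FPKM across the 3 labelled HKO. Rpl36 had 961, 1970 and 457 FPKM for the flox livers and 500, 416 and 450 FPKM for those labelled HKO. In all 3 genes flox 3 was within or below the HKO range, while flox 1 and 2 were far above it. Rpl37a, a zinc-binding protein, had a log2 fold change of -1.20 ± 0.44 (SE, n = 3 and 3), without overlap. Rpl21 had -1.26 ± 0.74, and -0.49 without flox 2. Its values were 30.2, 84.4 and 8.96 FPKM in flox against 11.1, 15.3 and 9.30 FPKM in HKO, with flox 3 the lowest. Rpl8, Rpl19 and Rpl4, also among the most abundant, had -0.97, -0.85 and -0.60, and Rpl18 had -1.04.

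Small subunit genes had a median log2 fold change of -0.81, and all 30 were negative, against 50.1% of all tested genes. At an unadjusted p under 0.05, 19 of the 30 were lower, against 10.8% of all tested genes. Mean levels of the 30 ran from 32.6 to 672 FPKM, with a median of 221 FPKM. Rps28, one of the smallest of these proteins, had 167, 271 and 65.7 FPKM under the flox label against 56.6, 45.0 and 49.999 FPKM under the HKO label, with a log2 fold change of -1.51 ± 0.50 (SE, n = 3 and 3, limma adjusted p = 0.206). Rps29, a zinc-binding protein, had 495, 610 and 156 FPKM across flox 1 to 3 and 159, 128 and 148 FPKM across the 3 labelled HKO. Flox 3 thus lay just above the HKO libraries for Rps28 and within their range for Rps29. Rps9, which lies near the mRNA entry channel, had 262, 465 and 196 FPKM for the flox livers and 143, 136 and 138 FPKM for those labelled HKO, without overlap (log2 fold change -1.05, adjusted p = 0.200 by limma).

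Further small subunit genes followed the same order of libraries. Rps20 had 104, 127 and 58.9 FPKM under the flox label against 47.3, 50.1 and 49.4 FPKM under the HKO label. Rps15, one of the most abundant, had 784, 1679 and 379 FPKM across flox 1 to 3 and 429, 369 and 392 FPKM across the 3 labelled HKO. Rps2 and Rps19, the latter mutated in Diamond-Blackfan anaemia in humans, had log2 fold changes of -0.81 and -1.08. The abundant gene with the smallest difference was Rps3a1, with 585, 602 and 446 FPKM for the flox livers and 406, 405 and 424 FPKM for those labelled HKO. Its log2 fold change of -0.39 turned to 0.03 under total scaling and under quantile normalization and to 0.16 after correction for level, so no direction is given, although its groups did not overlap as deposited.

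Rps27 (chr 3), a zinc-binding protein of the small subunit, had the largest difference of all: 264, 228 and 88.8 FPKM under the flox label against 56.5, 34.7 and 39.3 FPKM under the HKO label, with a log2 fold change of -2.03 ± 0.45 (SE, n = 3 and 3, limma adjusted p = 0.157, range 0.0147 to 0.532 over the alternatives). Its copy Rps27rt (chr 9), a retrogene of 374 bases, had 201, 533 and 243 FPKM across flox 1 to 3 and 310, 331 and 342 FPKM across the 3 labelled HKO (log2 fold change 0.14). The 2 transcripts are nearly the same: 296 of the 325 stretches of 50 bases in Rps27rt occur in Rps27 (91.1%). The value of either gene alone is therefore uncertain, since the counting may have split shared reads differently. The share of Rps27 in the reads of the pair was 78.6%, 54.4% and 50.5% for flox against 33.7%, 22.6% and 24.3% for HKO, without overlap between the groups. The reads summed over the pair were scaled by the library sizes implied by the FPKM values, which differ from the assigned reads. These sizes were below the assigned reads in flox 2 and flox 3 and above them in flox 1 and every HKO library. The scaled sums were 351, 438 and 183 (flox) against 175, 160 and 169 (labelled HKO), in CPM of the implied size and not of assigned reads. On this scale the log2 means of the sums differed by -0.86, close to the median of the group as deposited. The related gene Rps27l, which shares no stretch of 50 bases with Rps27, had 284, 270 and 187 FPKM for the flox livers and 212, 192 and 215 FPKM for those labelled HKO.

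**Figure D3:**
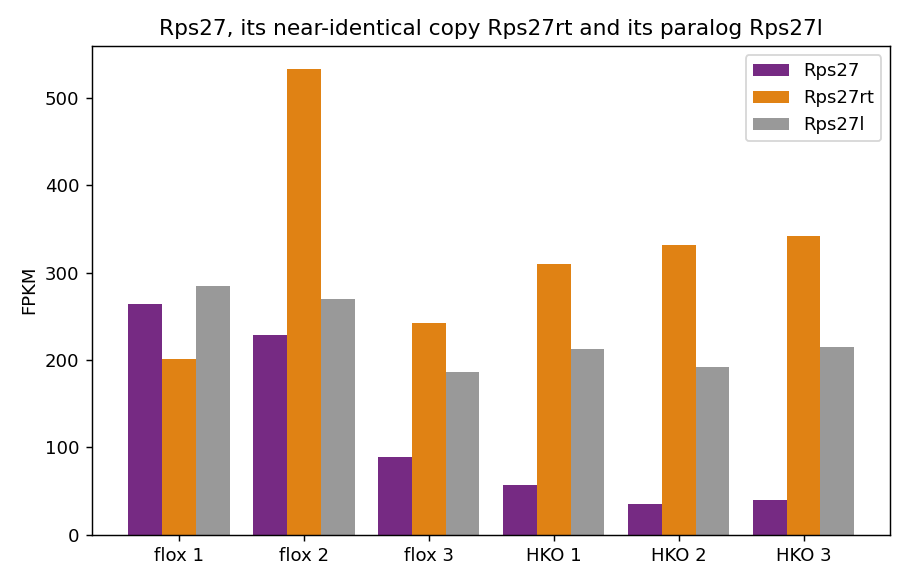
FPKM of Rps27, its copy Rps27rt and its paralog Rps27l in each library. Rps27 runs from 264 FPKM in flox 1 to 34.7 FPKM in HKO 2 while Rps27rt stays between 201 and 533 FPKM in flox and between 310 and 342 FPKM in HKO.

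The tested paralogs had log2 fold changes between -0.34 and 0.14, a range that also held the core genes Rpl17 (-0.08) and Rps27a (-0.28). Across the 5 that were tested the median log2 fold change was -0.12, 0 passed an unadjusted p of 0.05, and 0 had groups that did not overlap. Over all tested genes 10.8% were lower and 10.1% higher at that p. Groups did not overlap for 16.7% as lower and 15.3% as higher. Rpl22l1, which in mouse is repressed by its relative Rpl22, had 22.8, 13.5 and 24.9 FPKM under the flox label against 15.9, 17.5 and 13.2 FPKM under the HKO label (log2 fold change -0.34). Its lowest flox value came from flox 2, the library in which most ribosomal protein genes were highest. Rpl7l1, a relative of Rpl7, had 30.6, 43.9 and 20.2 FPKM across flox 1 to 3 and 33.4, 31.3 and 33.04 FPKM across the 3 labelled HKO (log2 fold change 0.11). Rpl36al was near the lower limit at 1.32, 1.84 and 0.434 FPKM for the flox livers and 0.995, 0.787 and 1.12 FPKM for those labelled HKO (log2 fold change -0.12). Rps19bp1, a nucleolar protein, had 23.1, 50.7 and 9.28 FPKM under the flox label against 19.1, 13.98 and 12.4 FPKM under the HKO label (log2 fold change -0.56). The values of Rps27l and Rpl36al turned positive after length correction (0.05 and 0.16) and, with that of Rpl22l1, under total scaling, so no direction is given for them. The value of Rps19bp1 was 0.02 without flox 2, so none is given for it either.

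Set against their relatives, per length and in log2, Rpl7l1 over Rpl7 stood at -2.58 ± 0.37 in flox and -1.97 ± 0.03 in HKO (SD, n = 3), without overlap. Rps27l over Rps27 stood at 0.47 ± 0.52 in flox and 2.28 ± 0.32 in HKO, where the Rps27 value carries the doubt given above. Rpl22l1 over Rpl22 was -1.81 ± 0.96 in flox and -1.61 ± 0.19 in HKO, a difference within the flox spread. Rpl36al over Rpl36a was -6.57 ± 0.52 in flox and -5.98 ± 0.27 in HKO, with overlap between the groups, and the difference of 0.59 was 0.29 without flox 3. No test was made on these ratios, and with 3 libraries against 3 the smallest exact permutation p would be 0.1. Rpl3l, the striated muscle relative of Rpl3, stayed at or under 0.278 FPKM in every library, Rpl39l at or under 0.130 FPKM, and the testis gene Rpl10l was listed at 0 in all 6.

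As a share of all reads the ribosomal protein genes took 3.60%, 4.78% and 1.82% in libraries flox 1, 2 and 3, against 2.39%, 2.10% and 2.04% in HKO 1, 2 and 3. The groups overlapped, since flox 3 was below every HKO library, and the means were 3.40 ± 1.49% and 2.17 ± 0.185% (SD, n = 3). Flox 3 had the lowest share although its FPKM values were mostly above those of HKO. Library sizes implied by the FPKM values were 18518300, 16093200 and 15321800 in flox, against 18329040, 18040015 and 18119468 assigned reads. In HKO they were 20051900, 20670800 and 21844900, against 16769082, 18406482 and 20633215 assigned reads. The implied size was below the assigned reads in flox 2 and flox 3 and above them in flox 1 and every HKO library. The deposited scaling and scaling by total reads thus place the groups, and not only flox 3, differently against each other. Scaled to equal totals per length, the median log2 fold change was -0.39 for ribosomal protein genes and 0.34 for all genes, a gap of -0.73. The gap as deposited was -0.81. In these whole livers, fewer cells of a type and less RNA per cell cannot be told apart.

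Gene length and level moved with the result. Ribosomal protein genes had a median length of 1736.5 bases against 3561 for all tested genes, and a principal transcript of 778.75 against 2489.5 bases. The slope of a gene's log2 deviation per log2 unit of gene length was -0.040 in flox 1 and -0.142 in flox 2, and between 0.038 and 0.049 in flox 3 and the 3 HKO libraries. Other genes in the 4 shortest deciles of length, which hold 67 of the 82, had median log2 fold changes between -0.32 and -0.20, and those of the longest decile 0.38. Once the trend with gene length was taken out of each library, the median of the ribosomal protein genes was -0.62, with 77 of 82 negative and 28 at an unadjusted p under 0.05, against 51.9% and 10.4% of all genes. With principal transcript length in its place, chosen after the data were seen, the median was -0.50, with 76 negative and 22 at that level, against 51.2% and 10.3%. In both, 0 passed, beside 0.00725% and 0.00746% of all genes as lower.

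Level moved with the result as well, and 74 of the 82 genes belong to the most abundant decile, from 31.9 FPKM upward. Other genes of that decile had a median log2 fold change of -0.44. A correction for mean level, added after the data were seen, left a median of -0.35. Of the 82, 74 were negative against 51.7% of all genes, and 3 were lower and 0 higher at an unadjusted p under 0.05 against 9.13% and 9.33%. Corrections for principal transcript length and then level left -0.20, with 64 negative against 51.6% of all genes, and 3 lower and 1 higher against 9.09% and 9.45%. Every correction, for length or level, was fitted over all the genes tested in it, the ribosomal protein genes included. In the most abundant decile these were 74 of 1379 genes, and its median was -0.46 with them and -0.44 without. Rps27 stayed the lowest in all of the corrections, from -1.83 to -1.55.

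**Figure D4:**
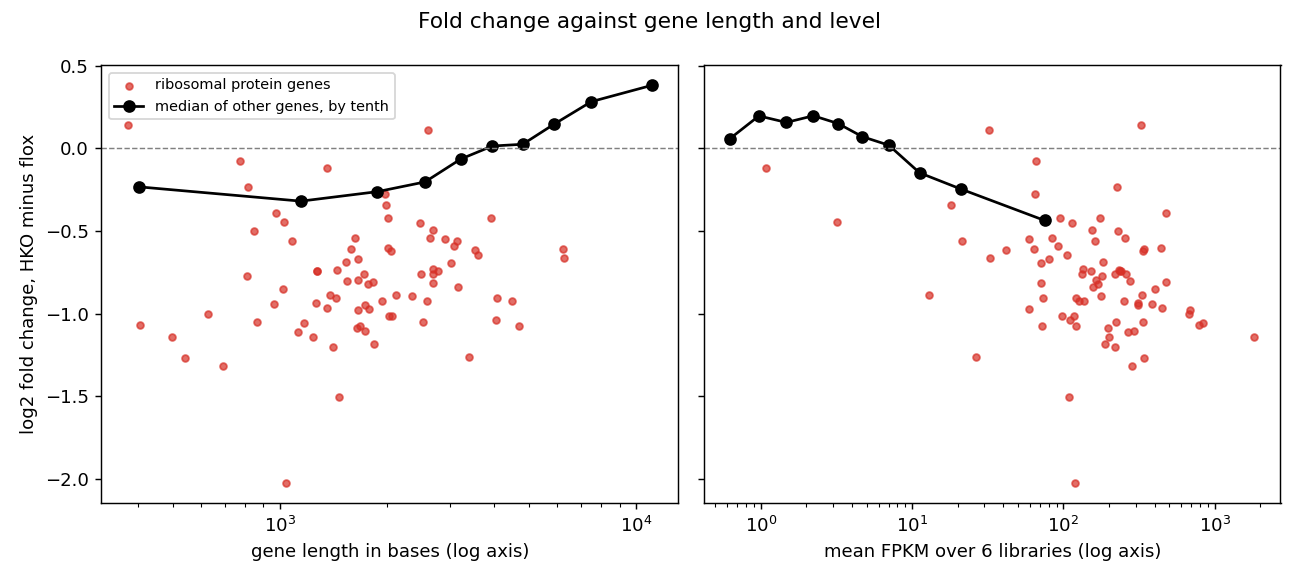
Log2 fold change of HKO against flox for the tested ribosomal protein genes (red) against gene length (left) and mean FPKM (right), with the median of the other tested genes in each decile of length or level (black). The black line runs from -0.23 in the shortest decile to 0.38 in the longest, and reaches -0.44 in the most abundant decile, and most red points lie below it.

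Without flox 3, 64 ribosomal protein genes fell after correction on gene length and 56 after correction on principal transcript length, against 17.2% and 16.9% of all genes as lower, with 0 higher in each. In the fit without flox 3 and without correction, 19.4% of all genes passed as lower and 21% as higher. By role, 40 of 43 large subunit, 29 of 30 small subunit and 3 of 3 P-stalk genes passed as lower there. Rps19bp1 did too, and 0 of 5 paralog genes did. With flox 2 and flox 3 both left out, 71 were lower and 1 higher, which was Rps27rt, against 14.9% and 15.3% of all genes. That fit assumes that the lone flox library varies like those of HKO.

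Among themselves the 82 genes showed a stronger relation of the fold change with base composition than with length. Described over genes, which share the same 6 libraries, Pearson's r of the log2 fold change was -0.476 with the GC share of the principal transcript, -0.330 with log2 mean FPKM, 0.226 with log2 principal transcript length and 0.083 with log2 gene length. The share of a gene's transcript windows found in other genes, at a median of 43.2%, gave r = 0.007. After correction on principal transcript length and then GC, added after the data were seen, the median log2 fold change of the 82 was -0.40. It was -0.01 over all genes tested in that fit. Genes with and without the TOP-like run at the annotated start had medians of -0.80 (42 genes) and -0.71 (20 genes). The levels of the core genes relative to each other stayed alike across libraries, with r of log2 FPKM between 0.921 and 0.990 for pairs of libraries.

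Ribosomal components that carry other names, from a list set apart from the naming rule, had values like those of the core genes. Rack1, a scaffold on the small subunit, had 149, 203 and 99.1 FPKM across flox 1 to 3 and 80.6, 81.4 and 82.96 FPKM across the 3 labelled HKO (log2 fold change -0.81). Rpsa, also of the small subunit, had 362, 558 and 208 FPKM for the flox livers and 193, 179 and 193 FPKM for those labelled HKO (-0.88). Fau, which encodes a ribosomal protein fused to a ubiquitin-like protein, had -1.12. These 3 were at an unadjusted p under 0.05, with adjusted p between 0.212 and 0.238 by limma, and 0 passed.

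Lists of the wider translation pathway had smaller medians. For elongation and other TOP mRNAs, 19 genes were tested, 16 were negative, 4 were lower and 1 higher at an unadjusted p under 0.05, and the median log2 fold change was -0.34. Over all tested genes 50.1% were negative, 10.8% lower and 10.1% higher by the same measures. Among them Eef2, the translocation factor, had 716, 875 and 811 FPKM under the flox label against 438, 501 and 512 FPKM under the HKO label (-0.73), and Eif3f, a subunit of an initiation factor, had -0.95. Eif4a2, an initiation helicase, stood the other way at 17.1, 12.3 and 26.96 FPKM across flox 1 to 3 and 43.6, 41.3 and 37.6 FPKM across the 3 labelled HKO (1.17). Groups did not overlap for these 3 genes, and 0 of the 19 passed with limma and Benjamini-Hochberg adjustment.

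Ribosome biogenesis factors were divided. Of 43 tested, 23 were negative, 1 was lower and 3 higher at an unadjusted p under 0.05, against 10.8% and 10.1% of all genes, and the median was -0.02, with 0 passing. Tsr1, needed for small subunit maturation, had 1.37, 0.583 and 2.42 FPKM for the flox livers and 6.13, 5.88 and 4.93 FPKM for those labelled HKO (log2 fold change 1.76), and Rrs1, a large subunit assembly factor, had 0.97. Nop10, a small protein of the pseudouridylation complex, had -0.90. Among 17 tested genes of the mTORC1 and Larp1 pathway, 10 were negative, 3 lower and 2 higher at that level, against the same shares of all genes, with a median of -0.10. Its members with the smallest p were Eif4ebp1, a translation repressor controlled by mTORC1, at 63.1, 116 and 62.9 FPKM under the flox label against 26.2, 27.1 and 26.3 FPKM under the HKO label (-1.52, adjusted p = 0.147 by limma), Akt1 (-0.69) and Rps6kb2 (-1.33).

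Lists of other short or abundant mRNAs were set beside the ribosomal ones. Subunits of complex I of the respiratory chain had a median log2 fold change of -0.66 with 36 of 37 negative, and proteasome core subunits -0.74 with 16 of 18 negative. Mitochondrial ribosomal proteins, which work in a separate ribosome, had -0.42 with 64 of 76 negative. After correction on principal transcript length the medians were -0.43, -0.51 and -0.22, beside -0.50 for the cytosolic ribosomal proteins. No test set the lists against each other, and negative medians were not limited to the cytosolic ribosome.

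**Figure D5:**
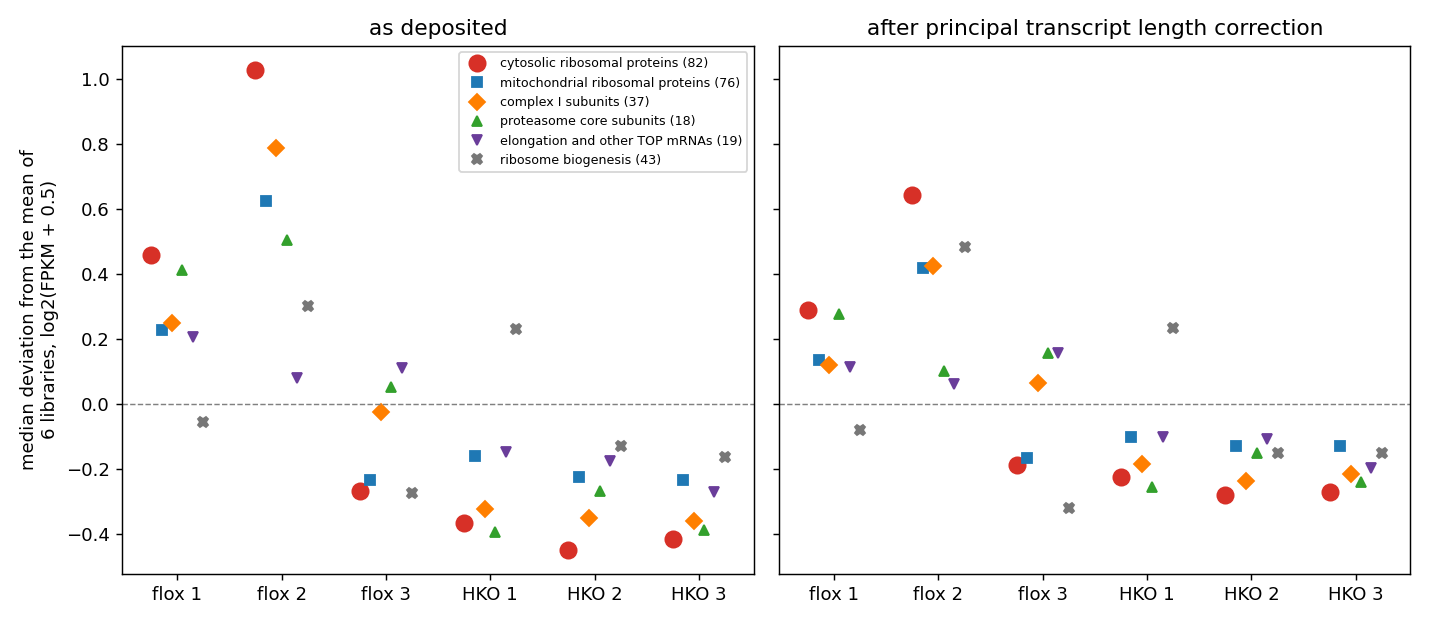
Median over each list of log2(FPKM + 0.5) minus the gene's mean over the 6 libraries, as deposited (left) and after correction on principal transcript length (right), with the number of genes in brackets. Cytosolic ribosomal proteins reach 1.03 in flox 2 as deposited and 0.64 after the correction, and complex I subunits 0.79 and 0.43.

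Markers of other cells moved with some of these libraries. Summed FPKM of 6 neutrophil markers ran from 19.0 to 44.1 in flox and from 2.48 to 3.81 in HKO, with 2 of the 6 reaching the tested level and Ly6g at 0 in every library. Sums over 6 macrophage markers ran from 252 to 457 in flox and from 129 to 210 in HKO. Of those 6 genes, only 4 had a negative log2 fold change. Sums over 4 erythroid markers ran from 195 to 692 in flox and from 218 to 312 in HKO. Of the 3 tested, 2 were negative. Lymphocyte markers summed to 0.895 to 5.95 in flox and 0.886 to 1.89 in HKO. Only 2 of those 6 genes reached the tested level, and each was negative. Cholangiocyte markers summed to 40.8 to 66.8 in flox and 100.3 to 244 in HKO, while endothelial and stellate sums overlapped between the groups. In the sums of macrophage, lymphocyte, erythroid and pancreas acinar markers flox 2 was the highest and flox 3 the lowest flox library. This order was seen for 76 ribosomal protein genes. Other lists differed: neutrophil, stellate and cholangiocyte sums were highest in flox 1 and lowest in flox 3. Endothelial and hepatocyte sums were highest in flox 3 and lowest in flox 1. The part of these cells in the result was not tested.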

How the data were processed

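Sequencing libraries from 3 flox and 3 HKO livers were grouped by the sample labels. Per the submitters' processing notes, TopHat2, HTSeq 0.6.1 and the build GRCm38.p6 were used; the sources used here give neither strand settings nor aligner options. The authors deposited FPKM values in 1 table per group, and the gene length deposited beside them let whole reads be recovered for 100% of values (tolerance 0.01 of a read). The 13787 genes averaging 0.5 FPKM or more were tested as log2(FPKM + 0.5) with limma 3.58.1 in R 4.3.3 (group alone, trend in the prior, two-sided, Benjamini-Hochberg over all tested genes, threshold 0.05). P-values measure the spread between these samples. Library trends with length, GC or level were removed by lowess (span 0.3) of each gene's deviation; the principal transcript came from GENCODE M21, and start regions from RefSeq. Alternatives were other pseudocounts (0.1, 1) and filters (none, 2 FPKM), total, trimmed-mean and quantile scaling, other moderation, voom on the reads, a replicate block, leaving out libraries, and testing protein-coding genes only. The code was tested on simulated data. Members, gene lists and tests were chosen with earlier results of these data known.

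Named were Elavl1, the 10 most abundant members, the 12 with the smallest p, the 5 highest and 5 lowest log2 fold changes before and after length correction, all paralogs, members under the filter, ribosomal components with other names, and 3 genes with the smallest p of each translation list; some genes that this rule takes are not reported here. Sequence was chosen for display, and Rps27a, Rpl24, Rpl22, Eif4e and Larp1 were named, after values were seen. Figures were drawn with matplotlib 3.10.9.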

Additional observations from a re-analysis of the deposited data

How the results depend on the processing

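Of all tested genes 2 passed as deposited. That count was 5 under total scaling, 16 at a threshold of 0.1, 0 to 5575 when each library was left out, and 4173 without flox 2 and flox 3 together, which was added after seeing the data. After length correction 2 passed, with 14 at a threshold of 0.1, 5 after correction on principal transcript length and GC (added), and 1 to 4599 when a library was left out. Ribosomal protein genes passing numbered 0 as deposited, 0 to 73 when each library was left out, and 72 without flox 2 and flox 3; after length correction they numbered 0, and 0 to 64 when a library was left out. The 73, 72, 64, 4599 and 5575 arose where flox 3 was left out. Depth was between 16769082 and 20633215 reads a library. Their median of -0.81 was -0.33 under quantile normalization, and the length-corrected median of -0.62 was -0.20 with level corrected too (added). Medians ran from -1.14 to -0.49 when each library was left out, and from -0.88 to -0.32 with a length correction.

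With the replicate number as a block, 1 gene of all passed, 1 with length correction too, and 0 ribosomal protein genes. Correlations of same-numbered libraries' deviations were -0.042, -0.090 and 0.070. The values thus gave no sign of pairing by number, though 3 libraries a group cannot exclude it.

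Among the genes named by rule, 59 values had the opposite sign, in 8 genes. The cause was not tested. Rps3a1 gave 0.028 under total scaling and under quantile normalization, 0.16 after level correction and 0.28 with principal length and level. Rpl17 gave 0.34 under both scalings, 0.21 after length correction (also with the block), 0.19 at span 0.6, 0.24 with principal length, 0.035 with GC added, 0.30 with level and 0.49 with principal length and level, and -0.54 to 0.50 when a library was left out. Rpl36al gave 0.16 under total scaling and after length correction (also with the block), 0.13 at span 0.6, 0.22 with principal length and with GC, 0.10 with level added, and -0.50 to 0.37 when a library was left out. Rps27l gave 0.18 and 0.37 under the scalings, 0.048 after length correction (also with the block), 0.028 at span 0.6, 0.069 with principal length, 0.27 with level, 0.39 with both, and -0.43 to 0.17 when a library was left out. Rps19bp1 gave 0.14 with principal length and GC, and Rpl22l1 0.061 under total scaling and 0.11 with principal length and level. When a library was left out they gave -1.17 to 0.23 and -0.61 to 0.26, Rpl7l1 -0.17 to 0.47 and Rps27rt -0.14 to 0.72.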

Other observations

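For Rps27a and Rpl17 a single HKO library was the highest of the 6, apart from the common order of libraries. Rps27a, which encodes a small subunit protein fused to ubiquitin, had 81.1, 89.9 and 36.7 FPKM for the flox livers and 39.5, 35.4 and 107 FPKM for those labelled HKO, so HKO 3 was the highest of the 6. Rpl17, a large subunit protein at the exit tunnel, had 63.3, 99.2 and 36.5 (flox) against 45.3, 111 and 38.7 FPKM (labelled HKO), with HKO 2 the highest. Rpl24 had 1.05, 11.8 and 1.01 FPKM across flox 1 to 3 and 1.94, 1.93 and 1.42 FPKM across the 3 labelled HKO, and flox 2 alone was above 2 FPKM.

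Pseudogene entries of the same family, named with -ps, numbered 282, of which 82 were tested. Their reads amounted to between 5.07% and 5.96% of those of the 85 protein-coding genes in each library. The tested entries had a median log2 fold change of -0.82, with 77 of 82 negative, beside -0.81 for the protein-coding genes. Of the 85 protein-coding genes, 81 had at least some 50-base windows that also occur in transcripts of another gene, so reads between a gene and its copies could be shared. Rps19bp1 had none. Pancreas acinar markers summed to 2556 FPKM in HKO 3 and to at most 25.2 FPKM in the other 5 libraries.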
